A study of Arabidopsis thaliana with 8 samples.

Results

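The core of ethylene perception and signalling was followed in Arabidopsis leaves given elf18, a bacterial peptide that the immune receptor EFR recognises. The set holds 10 of the 27172 genes in the deposited count tables, and its members were picked by locus from the known pathway. It comprises 5 receptors, ETR1 (AT1G66340), ERS1 (AT2G40940), ETR2 (AT3G23150), EIN4 (AT3G04580) and ERS2 (AT1G04310), the kinase CTR1 (AT5G03730), the membrane protein EIN2 (AT5G03280), the transcription factor EIN3 (AT3G20770), and the F-box proteins EBF1 (AT2G25490) and EBF2 (AT5G25350).

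Leaves came from 3-week-old Col-0 plants, and every plant, controls included, carried the transgene 35S:uORFsTBF1-LUC. Plants were infiltrated with 10 µM elf18 or, as mock, with 10 mM MgCl2. Each lysate pooled leaves of about 24 plants, 2 leaves per plant, and was split into a total RNA library and a library of ribosome footprints, the fragments that ribosomes shield from RNase I. This gave 4 groups of 2 libraries: elf18 footprints, mock footprints, elf18 RNA and mock RNA. The sources used here do not say how long after infiltration leaves were taken.

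As background, ethylene receptors sit in the endoplasmic reticulum membrane and signal when no ethylene is bound. They keep CTR1 active, and CTR1 phosphorylates EIN2 and holds it silent. When ethylene binds, the EIN2 C-terminal part is released, reaches the nucleus and stabilises EIN3, and it also binds the 3′ untranslated regions of EBF1 and EBF2 mRNA and represses their translation. EBF1 and EBF2 direct EIN3 to degradation, and EBF2 is itself a transcriptional target of EIN3. Microbial elicitors are known to raise ethylene production in leaves.

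Coding-sequence counts ranged from 4752563 to 6717946 per footprint library and from 6409393 to 12834781 per RNA library. The elf18 RNA libraries detected fewer genes over coding sequence, 13826 and 13518, than the mock RNA libraries, 16559 and 16816. The elf18 RNA replicates also correlated less with each other (r = 0.811 over 16177 genes, log2 of CPM plus 1) than the mock RNA replicates did (r = 0.93), and mock footprint replicate 1 detected 12935 genes against 17795 in replicate 2. WRKY33, an immune transcription factor used as the check of the response, was higher with elf18 in footprints (log2 change 2.29, SE 0.18, edgeR adjusted p = 1.68e-05) and in RNA (2.25, SE 0.13, edgeR adjusted p = 0.00127). All 4 mesophyll markers were detected in every library, and all 4 root markers were at 0 in 7 of the 8 libraries.

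Of the 10 genes, EBF2 alone passed edgeR's test in any comparison with all libraries in the fit, with fewer ribosome footprints in elf18 leaves at 0.407 of the mock level. EBF1, its close relative, lay in the same direction in footprints and in RNA but did not pass. CTR1, EIN2 and EIN3 did not pass in any of them. Among the receptors, ETR1, ERS1 and EIN4 had the higher mean in elf18 footprints, none past the test, while ETR2 and ERS2 were at or near 0 in every library. Values below are CPM, a library's counts scaled to a common total over all genes, with 2 libraries per group, and they are compared between libraries of a gene and never between genes. Fold changes and their SE come from edgeR's quasi-likelihood test with TMM scaling, and a gene was called at a Benjamini-Hochberg adjusted p under 0.05 over all genes tested.

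**Figure D1:**
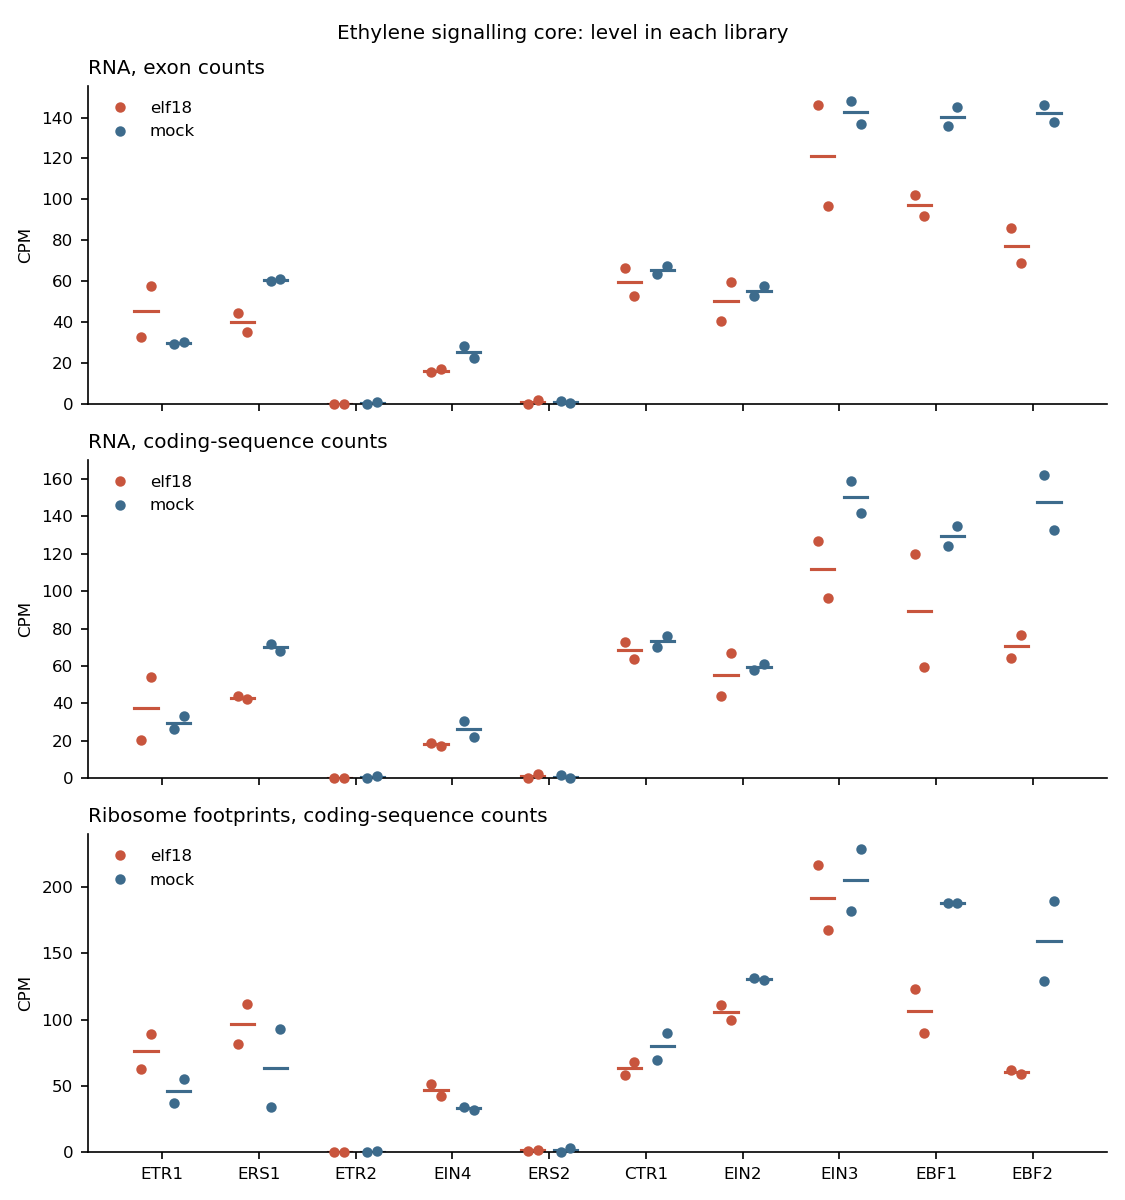
CPM of each of the 10 genes (y axis, linear scale) in RNA over exons, RNA over coding sequence and footprints over coding sequence, with elf18 left of mock; each point is a library and each bar the mean of 2 libraries. EBF2 lies between 59 and 61.9 CPM in elf18 footprints and between 129 and 189 CPM in mock footprints, and ETR2 and ERS2 lie at or near 0.

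ETR1 and ERS1 form the receptor subfamily with a conserved histidine kinase domain, and ERS1 lacks the receiver domain that ETR1 has. ETR1 RNA over exons stood at 32.7 and 57.9 CPM in elf18 leaves and at 29.5 and 30.5 CPM in mock leaves. Its footprints stood at 62.9 and 89.3 CPM in elf18 leaves and at 37 and 55.5 CPM in mock leaves. Both elf18 libraries lay above both mock libraries in each assay, but the elf18 RNA libraries were farther from each other than the lower one was from mock. The log2 change was 0.82 in footprints (SE 0.40, edgeR adjusted p = 0.669) and 0.75 in RNA (SE 0.38, edgeR adjusted p = 0.467). Over coding sequence alone the RNA groups overlapped, at 20.5 and 54.3 CPM with elf18 against 26.2 and 33.2 CPM in mock. Without elf18 RNA replicate 1 the ETR1 log2 change in RNA over exons was 1.13, in a fit that assumes the single elf18 library varies as the mock libraries do. The lowest value among the 9 alternatives was 0.244.

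The ERS1 mean with elf18 lay on opposite sides of the mock mean in the 2 assays. ERS1 RNA over exons was 44.7 and 35.1 CPM with elf18 and 60.3 and 61.3 CPM in mock. Its footprints were 81.7 and 112 CPM with elf18 and 34.5 and 93.2 CPM in mock. The RNA groups did not overlap and the footprint groups did, because mock footprint replicate 2 lay above elf18 replicate 1. Neither difference passed, with a log2 change of 0.71 in footprints (SE 0.43, edgeR adjusted p = 0.853) and -0.46 in RNA (SE 0.25, edgeR adjusted p = 0.517). Mock footprint replicate 2 also lay within the elf18 range, so the higher footprint mean with elf18 rests largely on mock footprint replicate 1. Without mock footprint replicate 2 the log2 change of ERS1 in footprints was 1.56. That fit assumes that the single mock library, the one with the fewest genes detected, varies as the elf18 libraries do, and in it the median over all genes was 0.26, against 0.01 with all libraries. As bulk leaf samples, these libraries cannot tell apart fewer cells expressing a gene and less RNA per cell.

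EIN4, ETR2 and ERS2 form the other receptor subfamily, whose members lack a complete set of histidine kinase motifs. EIN4 RNA over exons was 15.5 and 17.1 CPM with elf18 against 28.3 and 22.7 CPM in mock, and its footprints were 51.8 and 42.7 CPM with elf18 against 34.5 and 32 CPM in mock. Neither pair of groups overlapped, and the order was opposite in the 2 assays. The log2 change was 0.60 in footprints (SE 0.48, edgeR adjusted p = 0.997) and -0.50 in RNA (SE 0.43, edgeR adjusted p = 0.79).

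ETR2 had 0 and 0 exon counts with elf18 against 0 and 7 in mock, and 0 and 0 footprints with elf18 against 0 and 6 in mock. Both libraries with ETR2 counts are mock replicate 2. It was the only 1 of the 10 genes that did not pass the filter on low counts. ERS2 had 0 and 28 exon counts with elf18 against 22 and 5 in mock, and 6 and 11 footprints with elf18 against 0 and 24 in mock. Its groups overlapped in both assays. A count of 0 allows up to 3 counts, which is 0.195 to 0.38 CPM in the RNA libraries over exons and 0.447 to 0.631 CPM in the footprint libraries. No change of either receptor is detectable at this depth.

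CTR1, the Raf-like kinase that the receptors keep active, had nearly the same RNA in both treatments. Its exon values were 66.4 and 53 CPM with elf18 and 63.5 and 67.6 CPM in mock. CTR1 footprints were 58.5 and 67.9 CPM with elf18 and 69.6 and 89.9 CPM in mock, so both elf18 libraries were below both mock libraries by a margin smaller than the spread within either group. The log2 change was -0.24 in footprints (SE 0.35, 95% interval -1.002 to 0.523) and 0.01 in RNA (SE 0.22, 95% interval -0.53 to 0.56).

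EIN2, which carries the signal from the endoplasmic reticulum to the nucleus, had 40.8 and 59.5 CPM of exon RNA with elf18 and 53 and 57.9 CPM in mock. Its footprints stood at 111 and 99.9 CPM with elf18 and at 131 and 130 CPM in mock. The footprint groups did not overlap and the RNA groups did. The log2 change was -0.22 in footprints (SE 0.27) and 0.01 in RNA (SE 0.29), within the error in both.

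EIN3, the transcription factor at the end of the chain, had 146 and 96.8 CPM of exon RNA with elf18 and 148 and 137 CPM in mock. EIN3 footprints were 216 and 167 CPM with elf18 and 182 and 228 CPM in mock, so the groups overlapped. The log2 change of EIN3 was -0.01 in footprints (SE 0.23, 95% interval -0.51 to 0.50) and -0.09 in RNA (SE 0.22, 95% interval -0.63 to 0.44). EIN3 activity is set mainly by protein stability, which neither assay measures.

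The F-box genes carried the clearest difference. EBF2 footprints were 61.9 and 59 CPM with elf18, from 384 and 311 counts, and 129 and 189 CPM in mock, from 613 and 1271 counts. The elf18 libraries were close to each other and below both mock libraries, which were far apart (60.4 ± 2.07 CPM with elf18 against 159 ± 42.6 CPM in mock, SD, n = 2 each). The log2 change was -1.30 (SE 0.30, 95% interval -1.96 to -0.64, edgeR adjusted p = 0.0413). The call was lost without elf18 footprint replicate 1 (edgeR adjusted p = 0.0605), without elf18 footprint replicate 2 (0.115), without mock footprint replicate 2 (0.0931) and with only genes of at least 50 counts on average (0.0684). The log2 change stayed between -1.52 and -1.02 in all 10 alternatives.

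EBF2 RNA lay on the same side of mock. Over exons it was 85.9 and 68.8 CPM with elf18 and 146 and 138 CPM in mock, and over coding sequence it was 64.2 and 76.8 CPM with elf18 and 162 and 133 CPM in mock. In both counts each elf18 library lay well below each mock library. The log2 change in exon RNA was -0.73 (SE 0.18, 95% interval -1.18 to -0.29), which did not pass by edgeR (adjusted p = 0.144) and did pass by DESeq2 (adjusted p = 0.000608).

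EBF1 footprints were 123 and 90.1 CPM with elf18 against 188 and 188 CPM in mock. Exon RNA of EBF1 was 102 and 92.1 CPM with elf18 against 136 and 145 CPM in mock. Both sets of groups stood apart, and the log2 change was -0.72 in footprints (SE 0.26, 95% interval -1.29 to -0.16, edgeR adjusted p = 0.312) and -0.38 in RNA (SE 0.16, edgeR adjusted p = 0.321). DESeq2 called EBF1 in footprints (adjusted p = 0.0237). Over coding sequence the EBF1 RNA libraries with elf18 were far apart, at 120 and 59.3 CPM, against 124 and 135 CPM in mock.

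Ratios within a library need no scaling between libraries, and were chosen after the values were seen. For each EIN3 footprint there were 0.287 and 0.352 EBF2 footprints with elf18, against 0.708 and 0.828 in mock. In exon RNA the ratio of EBF2 to EIN3 was 0.59 and 0.71 with elf18, against 0.987 and 1.01 in mock. EBF1 footprints per EIN3 footprint were 0.572 and 0.538 with elf18, against 1.03 and 0.822 in mock. All 3 ratios were lower in each elf18 library than in each mock library. How often ratios of other gene pairs separate in this way was not counted. In exon RNA EBF1 per EIN3 overlapped, at 0.701 and 0.951 with elf18 against 0.915 and 1.06 in mock. It overlapped in coding-sequence RNA too, at 0.945 and 0.614 with elf18 against 0.784 and 0.952 in mock. EBF2 per EIN3 in coding-sequence RNA was 0.505 and 0.796 with elf18 against 1.02 and 0.933 in mock. These are ratios of counts, so they follow gene length as well as abundance and are read between treatments only.

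**Figure D2:**
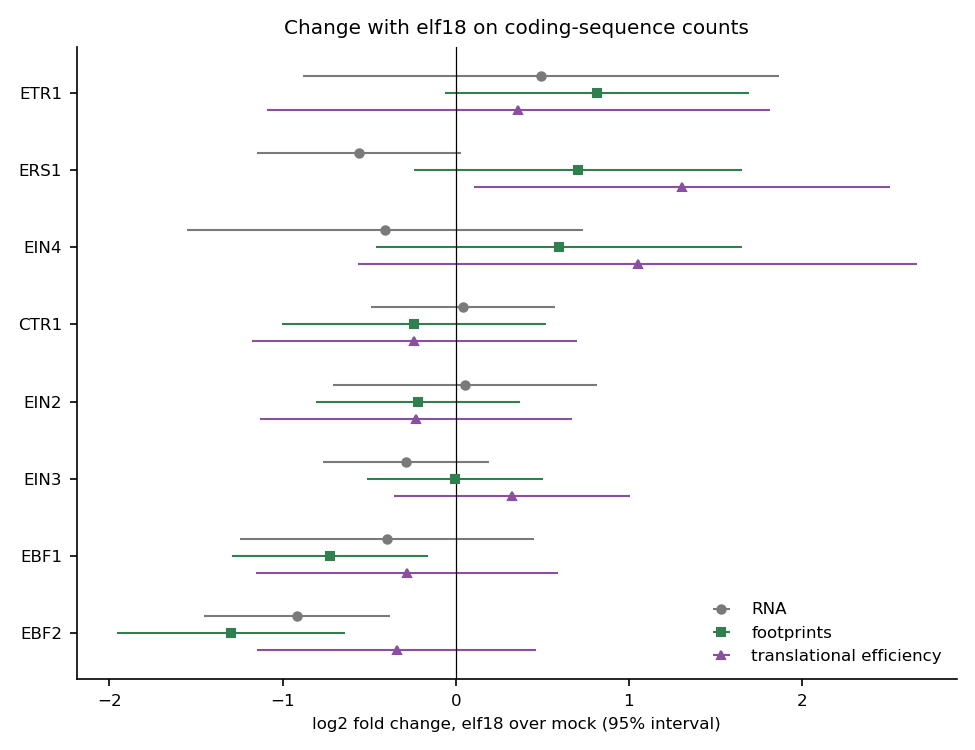
Log2 fold change, elf18 over mock, on coding-sequence counts (x axis) for 8 pathway genes, in RNA, in footprints and in translational efficiency (footprints beyond RNA); points are edgeR estimates and lines their 95% intervals, and ETR2 and ERS2 are not drawn. The EBF2 footprint interval runs from -1.96 to -0.64 and the EIN3 footprint interval from -0.51 to 0.50.

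Set against all genes, the counts are as follows. In footprints 0 of the 9 pathway genes tested were called higher and 1, EBF2, was called lower, where 2.59% of all genes tested were called higher and 0.166% lower. DESeq2 called 2 of 9, EBF1 and EBF2, and 10.9% of the genes it gave an adjusted p in footprints. At an unadjusted p under 0.05 edgeR had 2 of 9 in footprints, and 8.36% of all genes. In RNA over exons edgeR called 0 of 9, where 3.04% of all genes were called higher and 0.158% lower. There 1 of 9 was at an unadjusted p under 0.05, as were 15.9% of all genes, and DESeq2 called 1 of 9, and 16.6% of all genes. In RNA over coding sequence edgeR likewise called 0 of 9, against 2.59% of all genes called higher and 0.11% lower. There 1 of 9 was at an unadjusted p under 0.05, as were 15.8% of all genes, and DESeq2 called 1 of 9, and 17% of all genes. In both RNA counts the pathway genes' share by these looser rules was thus no higher than that of all genes. The median log2 change was -0.11 over the pathway genes and 0.01 over all genes in footprints, -0.09 over both in exon RNA, and -0.29 over the pathway genes and -0.10 over all genes in coding-sequence RNA.

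Separation of the libraries alone was common across the table. In footprints ETR1 and EIN4 lay wholly above mock, as did 16.3% of all genes, and CTR1, EIN2, EBF1 and EBF2 lay wholly below, as did 24% of all genes. In exon RNA ETR1 lay wholly above, as did 14.6% of all genes, and ERS1, EIN4, EBF1 and EBF2 wholly below, as did 34.1%. In coding-sequence RNA none of the 10 lay wholly above, where 14.4% of all genes did, and ERS1, EIN4, EIN3, EBF1 and EBF2 lay wholly below, where 34.3% did. The shares below mock were larger than those above in each count, and the elf18 RNA libraries are also those with fewer genes detected. Separation was judged on CPM without TMM scaling, unlike the fold changes. The TMM factors in exon RNA were 0.968 and 0.932 with elf18 and 1.05 and 1.06 in mock. With TMM scaling 7128 of 15870 genes had an exon RNA log2 change above 0 and 8742 below. Summed mesophyll marker CPM, also without TMM scaling, was lower with elf18 too, at 24900 and 25600 in elf18 footprints against 31800 and 33100 in mock footprints, and at 40000 and 45800 in elf18 RNA against 47400 and 48000 in mock RNA. With TMM scaling the exon RNA log2 change was 0.02 for RBCS1A, 0.14 for LHCB1.1, -0.13 for CA1 and -0.10 for RCA, none called. Summed epidermis markers were lower as well, at 485 and 555 CPM in elf18 footprints against 640 and 701 CPM in mock footprints, and at 296 and 306 CPM in elf18 RNA against 419 and 401 CPM in mock RNA. Summed guard cell markers were at 3280 and 3200 CPM in elf18 footprints against 2910 and 3070 CPM in mock footprints, and at 1770 and 1580 CPM in elf18 RNA against 2030 and 2020 CPM in mock RNA. TGG1 made up most of this sum, with mean footprints of 3180 CPM with elf18 and 2910 CPM in mock. The other guard cell markers each had the lower footprint mean with elf18. KAT1 was at 23.2 against 30 CPM, FAMA at 5.94 against 9.74, MYB60 at 5.21 against 6.08 and GC1 at 22.9 against 35.1. Summed vascular markers were at 353 and 258 CPM in elf18 footprints against 376 and 306 CPM in mock footprints, and at 405 and 512 CPM in elf18 RNA against 396 and 334 CPM in mock RNA. SUC2 made up most of the vascular sum, and the means of APL lay in the opposite direction in both assays. The part of these shifts in the EBF1 and EBF2 values was not tested.

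Translational efficiency, the change of footprints beyond that of coding-sequence RNA, was tested as an assay-by-treatment interaction with all 8 libraries in the fit. ERS1 had the largest value of the 9 pathway genes tested, 1.31 on the log2 scale (SE 0.57, 95% interval 0.11 to 2.51, unadjusted p = 0.0346, edgeR adjusted p = 0.9999), and EIN4 followed at 1.05 (SE 0.76). EBF2 was at -0.34 (SE 0.38, 95% interval -1.15 to 0.46) and EBF1 at -0.28 (SE 0.41), so their footprints and RNA did not separate beyond error. Of the 9 genes tested, edgeR called 0, with 1 at an unadjusted p under 0.05, and DESeq2 called 0. The share called over all genes by edgeR was also 0%, with 725 of 16177 genes (4.48%) at an unadjusted p under 0.05, and DESeq2 called 70 genes (0.55% of those it gave an adjusted p).

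Footprint CPM divided by RNA CPM within a lysate shows what lies behind these values. For ERS1 it was 1.86 and 2.66 with elf18 and 0.48 and 1.36 in mock. For EIN4 it was 2.75 and 2.46 with elf18 and 1.12 and 1.43 in mock. EIN3 gave 1.7 and 1.73 with elf18 and 1.15 and 1.61 in mock. In these 3 genes each elf18 lysate was above each mock lysate, and 18.2% of all genes measured did the same. None of the 8 pathway genes measured in all lysates lay wholly below mock, where 15% of all genes did. EBF2 gave 0.964 and 0.768 with elf18 and 0.796 and 1.43 in mock, and EBF1 gave 1.03 and 1.52 with elf18 and 1.51 and 1.39 in mock, so both overlapped. The median over all genes was 1.05 and 1 in the elf18 lysates and 0.824 and 1.09 in the mock lysates.

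**Figure D3:**
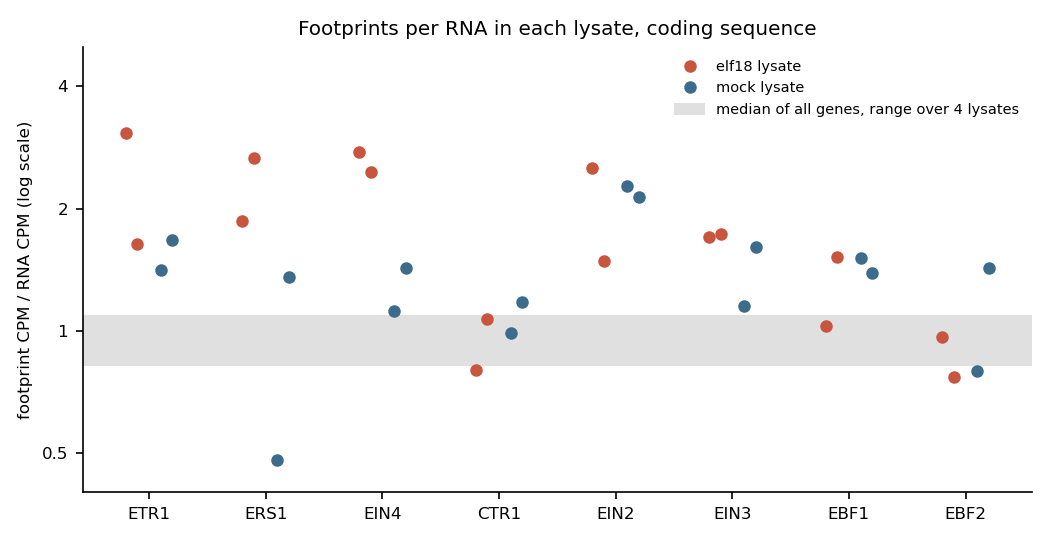
Footprint CPM per RNA CPM over coding sequence in each lysate (y axis, log scale), elf18 left of mock, for the 8 pathway genes measured in every lysate; the grey band is the range of the all-gene median over the 4 lysates. ERS1 runs from 1.86 to 2.66 with elf18 and from 0.48 to 1.36 in mock, whereas the EBF2 groups overlap.

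Footprints relative to RNA were also tested within each treatment, which asks whether a gene holds more or fewer footprints for its RNA than the typical gene. EIN2 stood highest in mock at 0.99 on the log2 scale (SE 0.30, unadjusted p = 0.00481, edgeR adjusted p = 0.1) and was at 0.76 with elf18 (SE 0.30, edgeR adjusted p = 0.196). With elf18 EIN4 was at 1.23 (SE 0.54, edgeR adjusted p = 0.262), ERS1 at 1.02 (SE 0.40, edgeR adjusted p = 0.193) and EIN3 at 0.63 (SE 0.23, edgeR adjusted p = 0.147). With elf18 edgeR called 0 of 9 genes, where 5.63% of all genes were called. There 4 of 9 were at an unadjusted p under 0.05, as were 16.7% of all genes, and DESeq2 called 1, EIN3, and 14.9% of the genes it gave an adjusted p. In mock edgeR called 0 of 9, where 3.42% of all genes were called. There 1 of 9 was at an unadjusted p under 0.05, as were 10.9% of all genes, and DESeq2 called 1, EIN2, and 19.4% of the genes it gave an adjusted p. EIN2 also passed edgeR in mock when an elf18 lysate was left out (adjusted p = 0.0465 without replicate 1 and 0.0417 without replicate 2).

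Because EBF1 and EBF2 mRNAs are known for long untranslated regions, the share of exon counts outside the coding sequence was taken for each RNA library, with exact Clopper-Pearson 95% intervals that cover counting error only. For EBF1 it was 3.61% (2.6 to 4.86) and 46.4% (43.8 to 49) with elf18, against 25.6% (23.7 to 27.6) and 24.3% (21.8 to 26.9) in mock. For EBF2 it was 38.7% (35.6 to 41.9) and 6.98% (5.52 to 8.69) with elf18, against 10.2% (8.98 to 11.6) and 21.9% (19.5 to 24.5) in mock. The elf18 replicates lay on opposite sides of mock for both genes, and in opposite order, far beyond counting error. The log2 change of counts outside coding sequence relative to those within it was -0.89 for EBF1 (SE 1.61) and 0.25 for EBF2 (SE 1.16). The median over all 15185 genes tested was -0.81, with 9936 of them below 0, so EBF1 lay near the typical gene.

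Of the other pathway genes, ERS1 also had an elf18 library on each side of mock. It had 19.1% outside coding sequence in elf18 replicate 1 and 0 of 541 counts (interval 0 to 0.68%) in replicate 2, against 3.2% and 9.5% in mock. CTR1 had 9.88% and 0 of 817 counts (interval 0 to 0.45%) with elf18, against 9.96% and 8.61% in mock. EIN4 had 0 of 172 counts (interval 0 to 2.12%) and 15.2% with elf18, against 11.5% and 20.1% in mock. ETR1 gave 48.6% and 21.9% with elf18 against 27.9% and 11.6% in mock, EIN3 gave 28.4% and 17% with elf18 against 13.2% and 15.6% in mock, and EIN2 gave 11.7% and 6.11% with elf18 against 11.5% and 14.4% in mock. Both elf18 libraries were above mock for EIN3, and in CTR1, EIN4, ETR1 and EIN2 1 elf18 library was within the mock range. How often this share separates across all genes was not counted. Among genes with at least 100 exon counts in a library and counts outside coding sequence in at least 1 library, 24.7% and 33% had none outside in the elf18 libraries, against 7.86% and 3.46% in the mock libraries. Of the 9 pathway genes tested edgeR called 0, with 0 at an unadjusted p under 0.05, and over all genes 0% were called, with 829 (5.46%) at an unadjusted p under 0.05; DESeq2 was not run on this comparison.

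**Figure D4:**
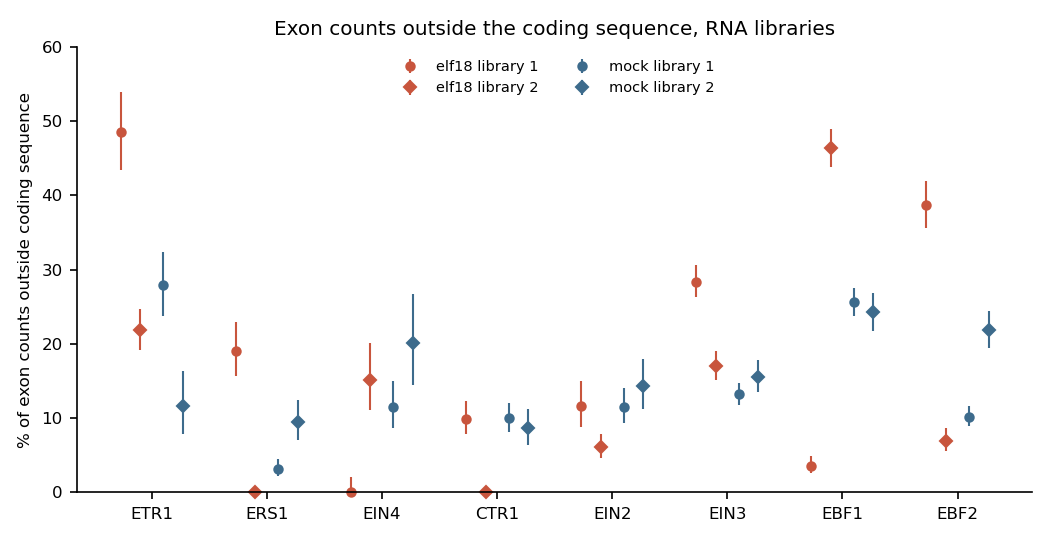
Percent of exon counts outside the coding sequence in each RNA library (y axis), elf18 left of mock, for 8 pathway genes, with exact 95% intervals for counting error. EBF1 is at 3.61% and 46.4% in the elf18 libraries and at 25.6% and 24.3% in the mock libraries.

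Beyond the core, 17 modulators of ethylene signalling and 15 ethylene response genes were listed. The modulators include the EIN3 relative EIL1, the receptor partner RTE1 and the subunits of the ubiquitin ligase that EBF1 and EBF2 join. With elf18 against mock, 0 of 15 modulators tested in footprints and 0 of 16 tested in exon RNA passed, with 1 at an unadjusted p under 0.05 in each. Among response genes 1 of 10 tested in footprints and 1 of 14 tested in exon RNA rose and 0 fell, where 2.59% of all genes rose in footprints and 3.04% in exon RNA. At an unadjusted p under 0.05, in either direction, there were 4 response genes in footprints and 4 in exon RNA. By this rule edgeR had 8.36% of all genes in footprints and 15.9% in exon RNA. The response gene that rose in both was EDF2 (AT1G68840), an AP2 and B3 domain transcription factor of the RAV family. EDF2 footprints were 604 and 887 CPM with elf18 against 371 and 385 CPM in mock (log2 change 1.08, SE 0.19, edgeR adjusted p = 0.0073). EDF2 exon RNA was 738 and 817 CPM with elf18 against 440 and 413 CPM in mock (log2 change 1.02, SE 0.12, edgeR adjusted p = 0.00874). Every elf18 library was above every mock library in both assays.

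For footprints relative to RNA, 2 of the 16 modulators tested passed with elf18, 1 higher and 1 lower, and 1 passed in mock, lower. Over all genes, in either direction, 5.63% were called with elf18 and 3.42% in mock. ASK1 (AT1G75950), the SKP1 subunit that binds F-box proteins, was low in footprints for its RNA, at -1.29 with elf18 (SE 0.30, edgeR adjusted p = 0.0148) and -1.57 in mock (SE 0.30, edgeR adjusted p = 0.00546) on the log2 scale. CUL1 (AT4G02570), the cullin scaffold, was high with elf18 at 1.05 (SE 0.29, edgeR adjusted p = 0.0458) and was called in 7 of 10 alternatives. The change between treatments passed for neither (edgeR adjusted p = 0.9999 each).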

How the data were processed

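RNA-seq and ribosome footprint libraries were analysed from the authors' deposited tables of raw counts per gene, over exons for the 4 RNA libraries and over coding sequence for all 8. Per the submitters' processing notes, CASAVA 1.8.2, Bowtie2 2.0, HTSeq and TAIR10 were used; strand setting, footprint length limits and treatment of multiply matching reads are not given in the sources used here, so counts of related receptors may include shared reads. Footprint counts were blank for 62 genes and 66 genes had more counts over coding sequence than over exons in a library; these were left out of the fits that need those values.

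Each comparison was fitted on the whole table with edgeR 4.0.16 in R 4.3.3. Settings were TMM, filterByExpr with a minimum of 10 counts, the quasi-likelihood F test, Benjamini-Hochberg and a threshold of 0.05. The fits were first tried on simulated data with a capped spread, which does not show how they perform at the spread of these replicates. DESeq2 1.42.0 was an alternative. Fits over treatment alone had 2 residual degrees of freedom and the interaction fit 4. With 2 libraries a side the smallest exact permutation p is 0.333, so none was run. Labels do not say that replicates are separate experiments, so p-values measure the spread between these lysates. Reads carried no molecular identifiers, so intervals and floors cover counting error only. The number in the sample IDs tied each RNA library to the footprint library of its lysate. The letters of the elf18 IDs differ, RME for RNA and MZ for footprints. Deviations of the RNA and footprint libraries of 1 lysate from their group means correlated at r = -0.0127 in mock and -0.00503 in elf18, over 16177 genes. These deviations thus gave no sign of the tie, on which the ratios by lysate rely.

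Symbols came from a RefSeq locus table that names 26685 of the 27172 loci. Genes and lists were chosen with earlier results of these data known. All 10 genes are named. Of the lists, those that passed are named, up to 4 per list and comparison. WRKY33 and some cell type markers are named too. Levels per coding length were not compared, since no coding lengths were used here.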

Additional observations from a re-analysis of the deposited data

How the results depend on the processing

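Depth limits ETR2 and ERS2, and 2 libraries per group limit every call. DESeq2 called 1245 genes higher and 1383 lower in exon RNA, 1162 and 1463 in coding-sequence RNA, 651 and 219 in footprints, 70 in translational efficiency, and for footprints over RNA 2321 with elf18 and 1436 in mock; of the pathway genes it called 1 lower in each RNA count, 2 lower in footprints, and 1 higher for footprints over RNA in each treatment. With no filter 47, 30 and 96 genes were called lower in exon RNA, coding-sequence RNA and footprints, 8 in translational efficiency and 863 for footprints over RNA in mock. With a mean of at least 50 counts 38 and 32 were called lower in exon and coding-sequence RNA, and 0 pathway genes in footprints. A shared spread over 8 libraries gave 72 lower in coding-sequence RNA and 48 in footprints. The lysate as a block gave 6 calls in translational efficiency and 893 for footprints over RNA in mock. EIN3 footprints, at -0.01, were at 0.0109 with RLE scaling, 0.0107 with DESeq2, 0.0223 with the stricter filter and 0.0260 with the shared spread. The cause of these shifts was not tested.

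The numbers of the titles do not pair treatments by the labels, and deviations of same-numbered libraries correlated at r = -0.0425 in footprints and 0.0164 in RNA. With a replicate block the genes called were 747 higher and 169 lower in exon RNA, 676 and 158 in coding-sequence RNA, 570 and 108 in footprints, 1 in translational efficiency and 58 outside coding sequence. EBF2 kept its footprint call in the block (-1.28, edgeR adjusted p = 0.00346), 1 pathway gene, EBF2, was called lower in coding-sequence RNA (-0.92), and EIN2 exon RNA was at -0.0209.

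Leaving out 1 library at a time gave 462 to 1678 genes higher and 15 to 2699 lower in exon RNA, 350 to 1369 and 5 to 2408 in coding-sequence RNA, and 349 to 1085 and 12 to 329 in footprints. It gave 0 to 115 calls in translational efficiency, 508 to 1097 for footprints over RNA with elf18, 232 to 769 in mock, and 4 to 2155 outside coding sequence. The highest RNA counts came without elf18 RNA replicate 1, where the lone elf18 library is assumed to vary as mock does. Pathway genes called ranged from 0 to 1 higher in each RNA count and in footprints, 0 to 1 lower in exon RNA and footprints, 0 to 2 lower in coding-sequence RNA and outside coding sequence (ERS1 and CTR1), and 0 to 1 for footprints over RNA in mock. Log2 changes that crossed 0 ran, in exon RNA, from -0.13 to 0.14 for CTR1, -0.32 to 0.28 for EIN2 and -0.38 to 0.15 for EIN3. In coding-sequence RNA they ran from -0.41 to 1.04 for ETR1, -0.0347 to 0.11 for CTR1, -0.32 to 0.34 for EIN2 and -0.96 to 0.00655 for EBF1, and in footprints from -0.18 to 0.20 for EIN3. In translational efficiency they ran from -0.0145 to 1.00 for ETR1, -0.65 to 0.22 for EIN2 and -0.79 to 0.0733 for EBF2. ERS1 footprints over RNA in mock ran from -1.22 to 0.31. Counts outside coding sequence relative to those within it ran from -3.26 to 1.13 for EBF1 and -1.50 to 1.71 for EBF2. Levels per coding length were not run.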
